A study of Mus musculus with 16 samples.

Results

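Ins1, Ins2 and Iapp encode the peptide hormones that pancreatic β cells store and release, and they are 3 of the 22869 genes in the deposited table of read counts. They were taken by gene symbol. RNA, histone marks and CpG methylation were measured in sorted mouse β cells to compare old with young animals. The 3 old RNA libraries came from MIP-GFP/Bl6 mice aged 15, 16 and 17 months, and the 2 young RNA libraries from MIP-GFP/Bl6 mice aged 4 to 6 weeks. MIP-GFP is a green fluorescent protein reporter under the mouse insulin promoter, so all RNA groups carried a transgene that includes insulin gene sequence. Chromatin and bisulfite samples were labelled C57Bl6, 16 to 18 months for old and 4 to 6 weeks for young, and whether those mice carried the reporter was not given. The design text gives the old bisulfite pool as 18 to 22 months, which differs from its label. RNA libraries were pools of 5 to 10 mice, the young bisulfite library was a pool of 10 mice, and each bisulfite sample and each deposited histone list stood for 1 sample per age. Old H3K27me3 was described as 2 replicas of 4 to 7 pooled mice, and whether the deposited list joins them was not given.

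Insulin is made as preproinsulin, which enters the endoplasmic reticulum through a signal peptide, folds around disulfide bonds, is cut by prohormone convertases in the secretory granule and is stored there with zinc. Mice have 2 insulin genes: Ins2 keeps the ancestral structure with 2 introns, and Ins1 is a retroposed copy with 1. Iapp encodes islet amyloid polypeptide, also called amylin, which is processed by the same convertases, amidated, and released from the same granules. The mouse peptide does not form the islet amyloid known from humans.

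The transcripts lie on mm9 at chr19:52338813-52339948 on the forward strand for Ins1, chr7:149864561-149865613 on the reverse strand for Ins2, and chr6:142246945-142252339 on the forward strand for Iapp. The bases just before the annotated start are shown because promoter factors act near gene starts and because they hold few of the CpGs described further on. Distances are counted from the annotated start, and where transcription begins was not measured. Both runs are from RefSeq on build GRCm38.p6, 5′ to 3′ on the forward strand, with the 250 bases that end at the base before the start. In the Ins1 run, capitals mark GCCATCTG, the E box core of the rodent insulin promoter, and TAAT, the core bound by homeodomain factors such as Pdx1, on either strand (read as ATTA on the reverse). In the Iapp run, capitals mark the CG dinucleotides.
Ins1, chr19:52264047-52264296: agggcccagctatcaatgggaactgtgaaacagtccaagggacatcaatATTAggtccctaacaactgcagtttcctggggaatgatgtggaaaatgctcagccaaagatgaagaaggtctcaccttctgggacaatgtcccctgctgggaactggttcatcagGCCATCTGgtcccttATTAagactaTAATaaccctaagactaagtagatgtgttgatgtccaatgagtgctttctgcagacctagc
Iapp, chr6:142298175-142298424: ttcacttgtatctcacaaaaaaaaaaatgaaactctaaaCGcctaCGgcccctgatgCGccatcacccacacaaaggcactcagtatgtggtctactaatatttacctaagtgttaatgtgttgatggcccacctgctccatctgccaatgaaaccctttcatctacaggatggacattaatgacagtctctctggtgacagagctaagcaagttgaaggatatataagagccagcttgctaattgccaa
The Ins1 run held GCCATCTG once, with its first base 86 bases before the start, which 1.11% of 32851 promoter windows of 250 bases contained on either strand. That match overlaps a match to the general E box CANNTG, which was found in 66.2% of the windows. TAAT occurred 3 times in the Ins1 run and 5 times in the Iapp run, and 54.9% of the windows held it. The Ins1 run held no CG, while the Iapp run held 3, at 211, 205 and 193 bases before the start. Without a CG, the Ins1 run could not be tied to the mm9 start by CpG positions. Its gene model also differs between the builds, with a span of 1136 bp on mm9 and 719 bp on GRCm38. Places of the Ins1 motifs relative to the true promoter are therefore uncertain. Of all windows, 92.1% held at least 1 CG.

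The libraries held 23559908 to 33562822 gene counts in old and 6377619 and 12892123 in young cells, called here the shallower and the deeper young library. Old against young was tested for 15544 genes with edgeR's quasi-likelihood test on 3 old and 2 young libraries. With an adjusted p under 0.05, 3.17% of the genes rose and 7.93% fell with age. The median log2 fold change was -0.05, and -0.17 with DESeq2-type size factors (RLE), so fold changes below are relative to that shift. Markers of other cell types were higher in young libraries: the summed level of 16 acinar markers was 96.2 to 169 CPM (counts scaled to a library total of 1000000) in old and 1975 and 2815 CPM in young cells, and that of 10 stellate and fibroblast markers 26.1 to 41.8 CPM in old and 789 and 5785 CPM in young cells. Of these, 14 of 15 tested acinar genes and 10 of 10 stellate and fibroblast genes fell with age. The summed levels of the α, δ, PP, duct, endothelial and immune cell lists were likewise higher in both young libraries than in any old one. Each of these lists was above 0 in both ages, and Amy2a5 alone among the acinar markers was at 0 in every old library. The deeper young library also held Gcg, the α-cell hormone glucagon, at 32655 CPM, against 682 to 1766 CPM in the other 4. The summed level of 10 β-cell markers, which do not include the hormones, was 6706 to 9811 CPM in old and 5426 and 2691 CPM in young cells. What these differences contribute to the hormone values was not tested. In bulk samples, fewer cells of a type and less RNA per cell cannot be told apart.

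Ins1 was the most abundant gene in every library. It took 23.1%, 22.7% and 28.3% of the gene counts in old replicates 1, 2 and 3, and 24.1% and 22.0% in the shallower and the deeper young library. The groups overlapped, with the third old library highest and the deeper young library lowest. The log2 fold change of old over young was 0.27 (SE 0.27, edgeR adjusted p = 0.561), so no difference beyond the spread between libraries was detected.

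Ins2 ranked directly after Ins1 in all 5 libraries. Its share was 7.31%, 7.69% and 8.89% in the old libraries and 8.07% and 4.52% in the shallower and the deeper young library. The shallower young library lay among the old ones, and the deeper one was below all others. The log2 fold change was 0.50 (SE 0.32, edgeR adjusted p = 0.339). That value depended on which young library was used: it was 0.998 (edgeR adjusted p = 0.0197) without the shallower and 0.14 without the deeper young library, the one with high Gcg. The 3 Ins2 transcripts in the table carried almost the same counts, so they were not separate measurements. Ins1 and Ins2 have similar coding sequences, and how reads shared between them were assigned was not given, so the split between the 2 genes is uncertain.

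Iapp was higher in every old library than in either young one. It was at 19167, 20139 and 12196 CPM in old replicates 1 to 3 and at 7430 CPM in the shallower young library and 7917 CPM in the deeper one, or 1.92%, 2.01% and 1.22% against 0.743% and 0.792% of the counts. The groups did not overlap, although the third old library was closer to the young ones than the other old libraries were. Old libraries lay wholly above young ones for 18.7% of the tested genes, so this separation by itself is not particular to Iapp. The log2 fold change was 1.31 (SE 0.27, edgeR adjusted p = 0.0245), and Iapp rose by this test. The call was lost without old replicate 1 (log2 fold change 1.23, edgeR adjusted p = 0.1201) or without old replicate 2 (1.16, edgeR adjusted p = 0.102), and the direction stayed the same.

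**Figure D1:**
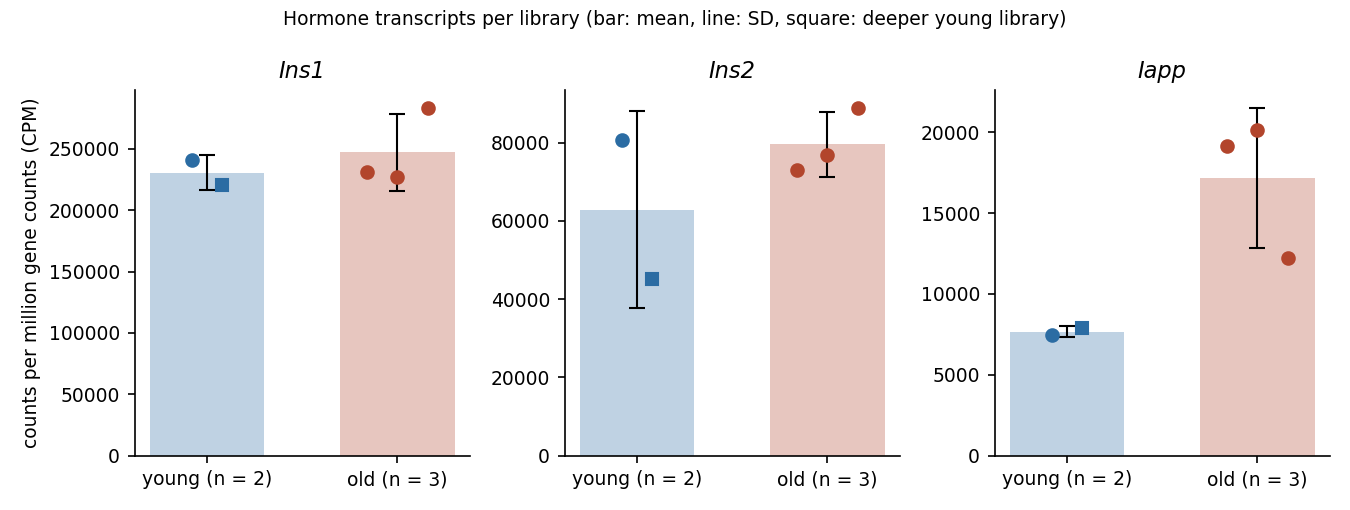
CPM of each hormone gene in each RNA library, with bars for the group mean and lines for 1 SD (n = 2 young, n = 3 old); squares are the deeper young library. The old and young points overlap for Ins1 and Ins2, while the old Iapp libraries, at 12196 to 20139 CPM, are all above the young ones.

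Together the 2 insulin genes took 30.4%, 30.4% and 37.2% of all gene counts in old and 32.1% and 26.5% in the shallower and the deeper young library. With Iapp added, the sums were 32.3%, 32.4% and 38.5% against 32.9% and 27.3%. The groups overlapped for both sums, and leaving the 3 genes out of the library sizes changed no call for them.

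Ratios within a library do not depend on its scaling. Iapp per Ins1 count was 0.0830, 0.0886 and 0.0430 in the old libraries and 0.0309 and 0.0359 in the shallower and the deeper young library. The groups did not overlap, and the old mean on the log2 scale was 2.05-fold the young one (exact two-sided permutation test over libraries, p = 0.2, adjusted over 3 ratios 0.4). With 3 against 2 libraries the smallest p is 0.1. Ins2 per Ins1 count was 0.317, 0.338 and 0.314 in old cells, 0.336 in the shallower young library and 0.205 in the deeper one (exact permutation p = 0.4). Of the 5 libraries, 4 thus lay within 0.314 to 0.338, and the deeper young library was apart. Iapp per Ins2 count was 0.262, 0.262 and 0.137 in old cells and 0.0921 and 0.175 in young cells, with overlapping groups (exact permutation p = 0.3).

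Levels of the 3 genes can be set against each other only per transcript length. On counts per length relative to Ins2, the Ins1 level was 1.75, 1.64 and 1.77 in old cells and 1.65 and 2.71 in young cells. The Iapp level on that scale was 0.213, 0.213 and 0.111 in old cells and 0.0748 and 0.142 in young cells. The order was Ins1, Ins2, Iapp in every library. The value for Ins1 depends on the gene model, since its transcript spans 1136 bp in the deposited table and 719 bp in RefSeq on GRCm38.

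For each member, the 3 genes with the most similar levels over the 5 libraries are named. As the nearest of 1397 genes over 5 values, they are close by selection, and shared regulation was not tested. Functions are given for some of them only and played no part in the choice. Likeness was measured as the root mean square difference of centred log2 CPM over 1397 genes with a mean of at least 100 CPM. The nearest to Ins1 were Pnmal2 (0.02 on the log2 scale), Nktr (0.03) and Man2a2 (0.04). Nearest to Ins2 were Chgb, the granule protein chromogranin B (0.06), Alg2 (0.07) and Calr, the endoplasmic reticulum chaperone calreticulin (0.08). Nearest to Iapp were Slc30a8, the transporter that loads zinc into insulin granules (0.06), Camk2n1 (0.06) and Asah1 (0.06). Ins1 and Ins2 differed from each other by 0.27 on this measure, and Iapp from them by 0.63 and 0.58.

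Genes that make, fold and store the hormones were read from lists chosen with earlier results of these data known. Of 26 tested genes of endoplasmic reticulum entry and proinsulin folding, 9 rose and 0 fell, where 3.17% of all genes rose and 7.93% fell. Of the 26, 23 had a positive log2 fold change, with a median of 0.85 against -0.05 over all genes tested. With RLE factors 5 rose, where 2.42% of all genes did. Without old replicate 1 or 2 none rose, where 0.27% and 0.34% of all genes did. Without old replicate 3, 1 rose, where 0.63% of all genes did. The list medians without old replicates 1, 2 and 3 were 0.87, 0.75 and 0.96. The median was 1.26 without the shallower and 0.61 without the deeper young library. Spcs2, a subunit of the signal peptidase that removes the signal peptide, was at 190, 255 and 128 CPM in old and 62.6 and 48.3 CPM in young cells (log2 fold change 1.93, SE 0.33, edgeR adjusted p = 0.0146). Every old library was above both young ones for Spcs2. Spcs3, another subunit, rose by 1.46, and Ssr3, part of the translocon-associated complex, by 1.33 on the log2 scale (edgeR adjusted p = 0.0202 and 0.0272). Ero1lb, the β-cell oxidase that drives disulfide formation in proinsulin, rose by 1.11 (edgeR adjusted p = 0.0434), whereas P4hb, a protein disulfide isomerase, had 0.85 and did not pass (edgeR adjusted p = 0.0638).

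Processing and storage genes were mixed. Of 10 tested genes of prohormone processing and amidation, Scg5 alone rose, the chaperone of prohormone convertase 2 (log2 fold change 1.39, SE 0.24, edgeR adjusted p = 0.0163). Over all genes 3.17% rose. No gene of this list rose when any 1 of the old libraries was left out, where 0.27% to 0.63% of all genes did. Without old replicate 2, 1 gene of the list fell, where 2.63% of all genes did. The convertases Pcsk1 and Pcsk2 had log2 fold changes of 0.82 and 0.61 (edgeR adjusted p = 0.254 and 0.0999). Carboxypeptidase E (Cpe) had 0.29, and the amidating enzyme Pam 0.02. Of 11 tested granule storage genes, 3 rose and 0 fell, with a median of 0.42, where 3.17% of all genes rose and 7.93% fell. Without old replicate 1 or 2, 1 rose, where 0.27% and 0.34% of all genes did. Leaving out the deeper young library gave a median of 0.13, and without the shallower one the median was 0.75. Slc30a8 was at 811, 774 and 524 CPM in old and 300 and 329 CPM in young cells (log2 fold change 1.30, SE 0.24, edgeR adjusted p = 0.0191). Scg2, a granin, rose by 1.31, and Atp6ap2, an accessory subunit of the granule proton pump, by 2.78.

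Of 25 tested factors that bind or act at the insulin promoter, 0 rose and 2 fell, with a median of 0.19. The 2 that fell are 8% of the list, near the 7.93% of all genes that fell, so the count shows nothing particular to these factors. None was called without old replicate 1 or 2, and 1 fell without old replicate 3. Without the shallower young library 3 rose and 4 fell, where 8.07% of all genes rose and 12.1% fell. Leaving out the deeper young library gave 5 that rose and 3 that fell, where 13.9% of all genes rose and 18.2% fell. Nfatc1, a calcium-regulated factor, was at 15.9, 17.7 and 23.9 CPM in old and 76.2 and 77.4 CPM in young cells (log2 fold change -1.83, SE 0.34, edgeR adjusted p = 0.0195). Tcf3, an E box partner, fell by 1.51 on the log2 scale (edgeR adjusted p = 0.0470). Both are also expressed in other cells of the pancreas, whose markers were higher in the young libraries, and the share this has in their values was not tested. Pdx1 had 0.88 (edgeR adjusted p = 0.0757), Neurod1 0.52, Isl1 0.54, Nkx2-2 0.52, Pax6 0.13 and Mafa -0.30, and none of these 6 passed. Mafa, a factor known from mature β cells, was listed at 1.04 to 1.73 CPM in all 5 libraries.

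Of 11 tested genes of insulin and amylin receptors and clearance, 0 passed in either direction, where 11.1% of all genes passed. The list median was -1.33. The sign of that median rested on the deeper young library, without which it was 0.23. Insr, the insulin receptor, had a log2 fold change of 0.06, Ide, the insulin-degrading enzyme, 0.36, and Ramp1, which turns the calcitonin receptor into an amylin receptor, -2.33 (edgeR adjusted p = 0.0932). Calcr, that receptor, had at most 1 count per library and was not tested. Of 10 tested regulators of insulin mRNA, Celf3 alone passed, with 215 to 330 CPM in old and 616 and 799 CPM in young cells (log2 fold change -1.20, SE 0.27, edgeR adjusted p = 0.0322). It is 10% of the list, where 7.93% of all genes fell. None of the list passed when any 1 of the old libraries was left out, where 2.22% to 2.97% of all genes passed. Ptbp1, which binds and stabilises insulin mRNA, had 0.01.

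**Figure D2:**
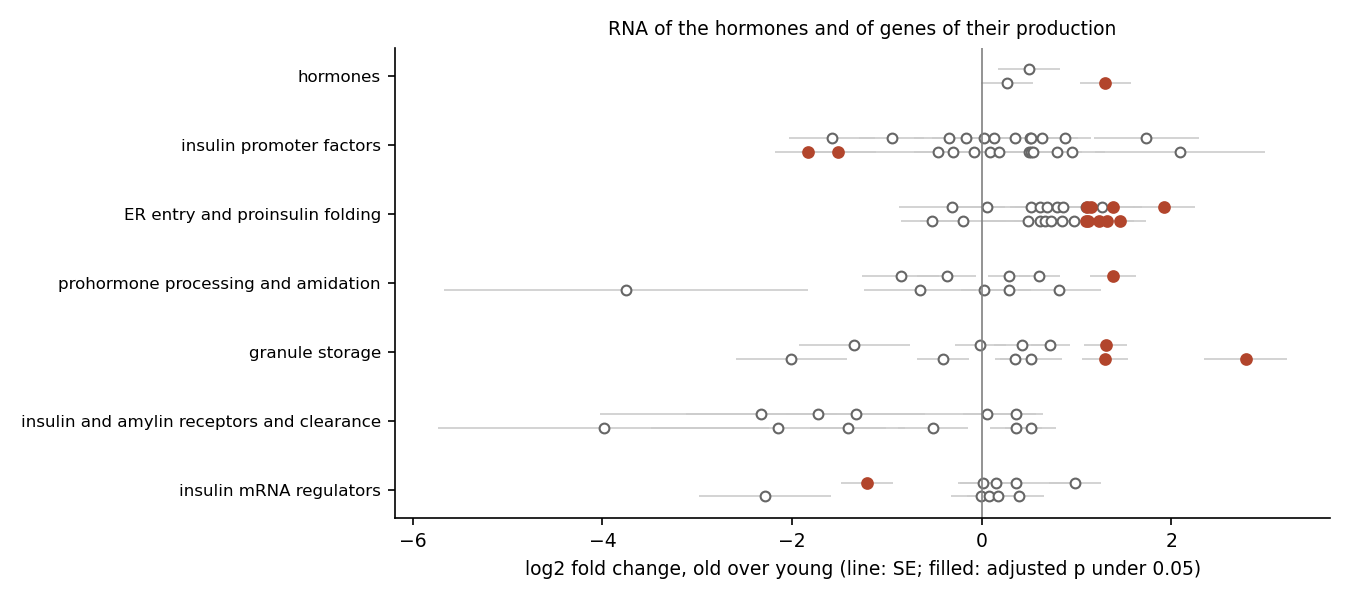
Log2 fold change of old over young RNA for the hormone genes and the tested genes of each list, with lines for the SE and filled points for an edgeR adjusted p under 0.05. Among the hormones only Iapp is filled, and all 9 filled points among the folding genes lie above 0.

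The other islet hormones moved the opposite way to Iapp. Sst, somatostatin of δ cells, was at 44.3 to 148 CPM in old and 1637 and 5833 CPM in young cells (log2 fold change -5.21, edgeR adjusted p = 0.00657). Ppy, pancreatic polypeptide, fell by 3.56 and Gcg by 3.71 on the log2 scale. The Gcg value rests on the deeper young library, since the shallower one was at 1766 CPM against 682 to 1453 CPM in old cells. A number of genes start near the members. Igf2, the growth factor gene 20904 bp from the Ins2 start, was at 1.88 CPM in one young library, the shallower, and at 71.8 CPM in the other, against 4.11 to 7.35 CPM in old cells, and did not pass (edgeR adjusted p = 0.162). Igf2as had 0 to 2.04 CPM, and Mir483 had no count. Near Iapp, Slco1a5 had a log2 fold change of -2.72 (edgeR adjusted p = 0.0618) and Pyroxd1 -0.03. No other gene started within 50 kb of Ins1.

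CpG methylation was read from 1 bisulfite library per age, so each test below compares those libraries and not the ages. Fisher's exact test was run on summed methylated and unmethylated reads of CpGs with at least 5 reads in both libraries, and adjusted over all genes tested. Reads may cover several CpGs and may be PCR copies, so intervals (95%, Wilson) cover counting error only and p-values are too small. The mean methylation of 15451359 such CpGs was 74.2% in old and 74.4% in young cells.

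In the promoter window, 1000 bp before to 500 bp after the start, Ins1 methylation was 9.68% in old (18 of 186 reads at 6 CpGs, interval 6.21% to 14.8%) and 54.8% in young cells (40 of 73, 43.4% to 65.7%). The difference of -45.1 percentage points (adjusted p = 8.51e-13) was the 63rd lowest of 22193 genes. Of the 6 CpGs, 4 lie after the start and belong to the transcript as well. The 2 before the start, at 799 and 385 bp, differed less, with 4 of 12 old and 2 of 5 young reads methylated at the first and 29.0% of 31 old and 42.3% of 26 young reads at the second. Ins2 was at 23.8% in old and 34.5% in young cells over 13 CpGs (-10.7 points, adjusted p = 0.0290), a call that was lost with CpGs at least 100 bp apart (-10.8 points, adjusted p = 0.178). Iapp was at 19.8% and 32.0% over 9 CpGs (-12.2 points, adjusted p = 0.0782), which did not pass. That value depended on the CpGs taken: it was -6.35 points with at least 3 reads, -21.8 with at least 10 (adjusted p = 0.00169), and 33.3 points higher in old from 250 bp before to 50 bp after the start (adjusted p = 0.0165). Ins1 and Ins2 are thus 2 of 3 called lower in old, where 25.6% of all genes were called lower and 27.6% higher, with a median difference of 0.03 points. In either direction 53.2% of all genes were called, so a call alone says little here and the size of the difference is given beside it.

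The whole transcript was also compared, which for Ins1 shares those 4 CpGs with the promoter window and is not a separate result. Between its start and end, the 12 CpGs of Ins1 were methylated in 7.87% of 381 old reads and 59.3% of 145 young reads (-51.4 points, adjusted p = 7.48e-33). This was the 15th lowest difference of 22120 genes. Ins2 was at 15.4% and 27.6% (11 CpGs, -12.2 points, adjusted p = 0.00232), and Iapp at 19.2% and 30.9% (28 CpGs, -11.7 points, adjusted p = 0.000108). All 3 were called lower in old, against 15.3% of all genes called lower and 45.1% called higher, with a median difference of 1.53 points. Among the 100 other genes with the highest mean CPM, 30 of 99 with a value were called lower and 41 higher, with a median of 0.81 points. With CpGs at least 100 bp apart, an alternative chosen after seeing the data so that 1 read rarely counts more than once, the differences were -53.2, -13.6 and -18.9 points for Ins1, Ins2 and Iapp, and each was still called.

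The old library held unusually many reads over Ins1. Its transcript had 31.8 reads per CpG in old and 12.1 in young cells, an old to young ratio of 2.63, where the median over 20998 genes was 1.03 and 0.0143% of genes had a higher ratio. At the Ins2 transcript the ratio was 0.972 and at that of Iapp 1.15. In the promoter window Ins2 had fewer old reads, with a ratio of 0.666. There the median over 20485 genes was 0.927, and 94.4% of genes had a higher ratio than Ins2. The Iapp promoter window was at 1.13. From 5 kb before the Ins1 start to the start, all listed CpGs had a mean of 8.40 reads in old and 8.20 in young cells. These means took all listed CpGs, whereas the transcript values took only CpGs with at least 5 reads in both libraries. With that minimum, 9 CpGs counted in the 5 kb before the start. From the farthest to the nearest they had 15, 5, 10, 8, 7, 8, 9, 12 and 31 old reads. The young reads at the same CpGs were 33, 7, 12, 19, 19, 14, 10, 5 and 26. At most of them the old library had fewer reads, except at 799 and 385 bp before the start. The reporter carries insulin promoter sequence, the bisulfite mice were labelled C57Bl6 only, and reads from such a transgene could not be separated from Ins1 in the deposited tables. Whether the extra reads contribute to the low old methylation of Ins1 was not tested.

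**Figure D3:**
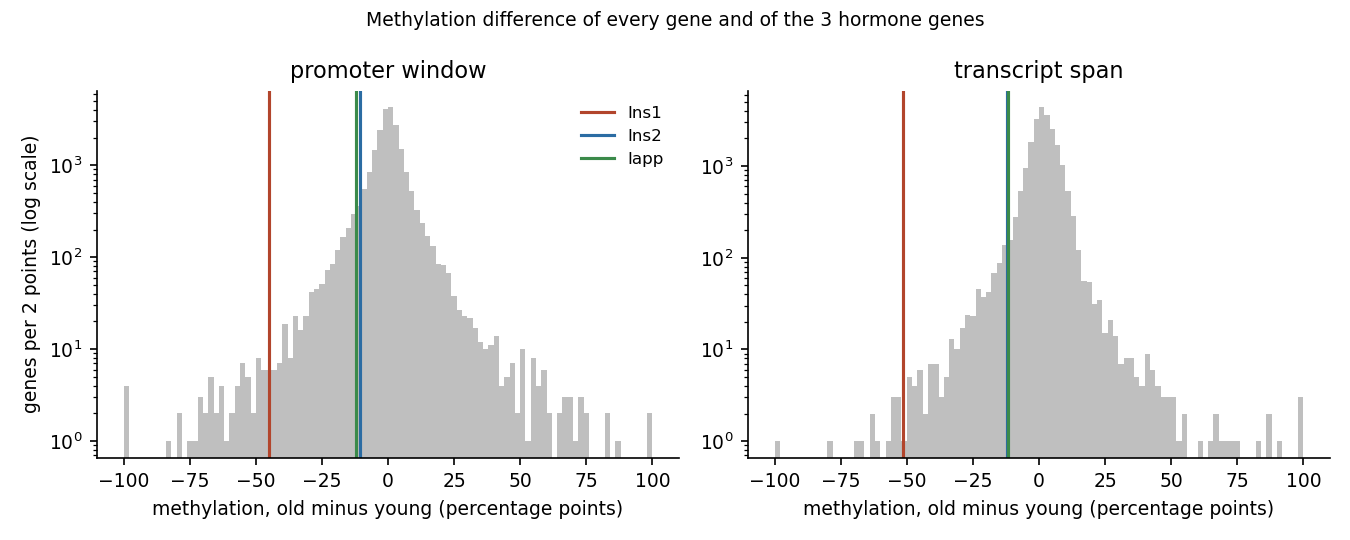
Number of genes (log scale) by methylation difference, old minus young in percentage points, for the promoter window and the transcript span; coloured lines mark the hormone genes. Ins1 lies far in the lower tail at -45.1 and -51.4 points, and Ins2 and Iapp lie near -12 points in the transcript span.

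Single CpGs showed where the differences sat. At 215 bp after the Ins1 start, 3.33% of 30 old and 55.6% of 27 young reads were methylated. At 516 bp the values were 4.17% and 76.0%, at 536 bp 5.00% and 78.6%, and at 884 bp 2.38% and 61.1%. Each of these 4 CpGs passed Fisher's exact test adjusted over 11488864 CpGs, and all lay in the transcript.

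At Ins2, CpGs at 459 and 928 bp after the start were lower in old cells (14.3% against 71.4%, and 2.27% against 36.7%). A CpG 1411 bp before the start was higher (66.7% against 24.4%). At Iapp, the CpG 4271 bp after the start was at 6.90% in old and 60.9% in young cells. The 3 promoter CpGs marked in the sequence went the other way, with 33.3%, 30.0% and 37.5% of 9, 10 and 8 old reads and 0 of 6 young reads at each. These 3 CpGs are 6 and 12 bp apart and may share reads.

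Within 50 kb of the starts, 7 of 150 tested CpGs near Ins1 were called lower in old and 8 higher. Near Ins2 the counts were 25 and 19 of 755, and near Iapp 10 and 4 of 296. Over the genome 3.18% of CpGs were called lower and 4.07% higher, against 4.67% lower and 5.33% higher near Ins1, 3.31% and 2.52% near Ins2, and 3.38% and 1.35% near Iapp. Of the calls of higher methylation near Ins1, 3 fell in a crowded stretch of 20 CpGs, 3721 to 3843 bp after the start, which had 85.8 old and 89.7 young reads per CpG, a depth far above its surroundings. From the start to 5 kb the sums were 14.4% in old and 15.3% in young cells with this stretch, and 18.7% and 55.0% without it (the stretch was chosen after its values were seen).

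**Figure D4:**
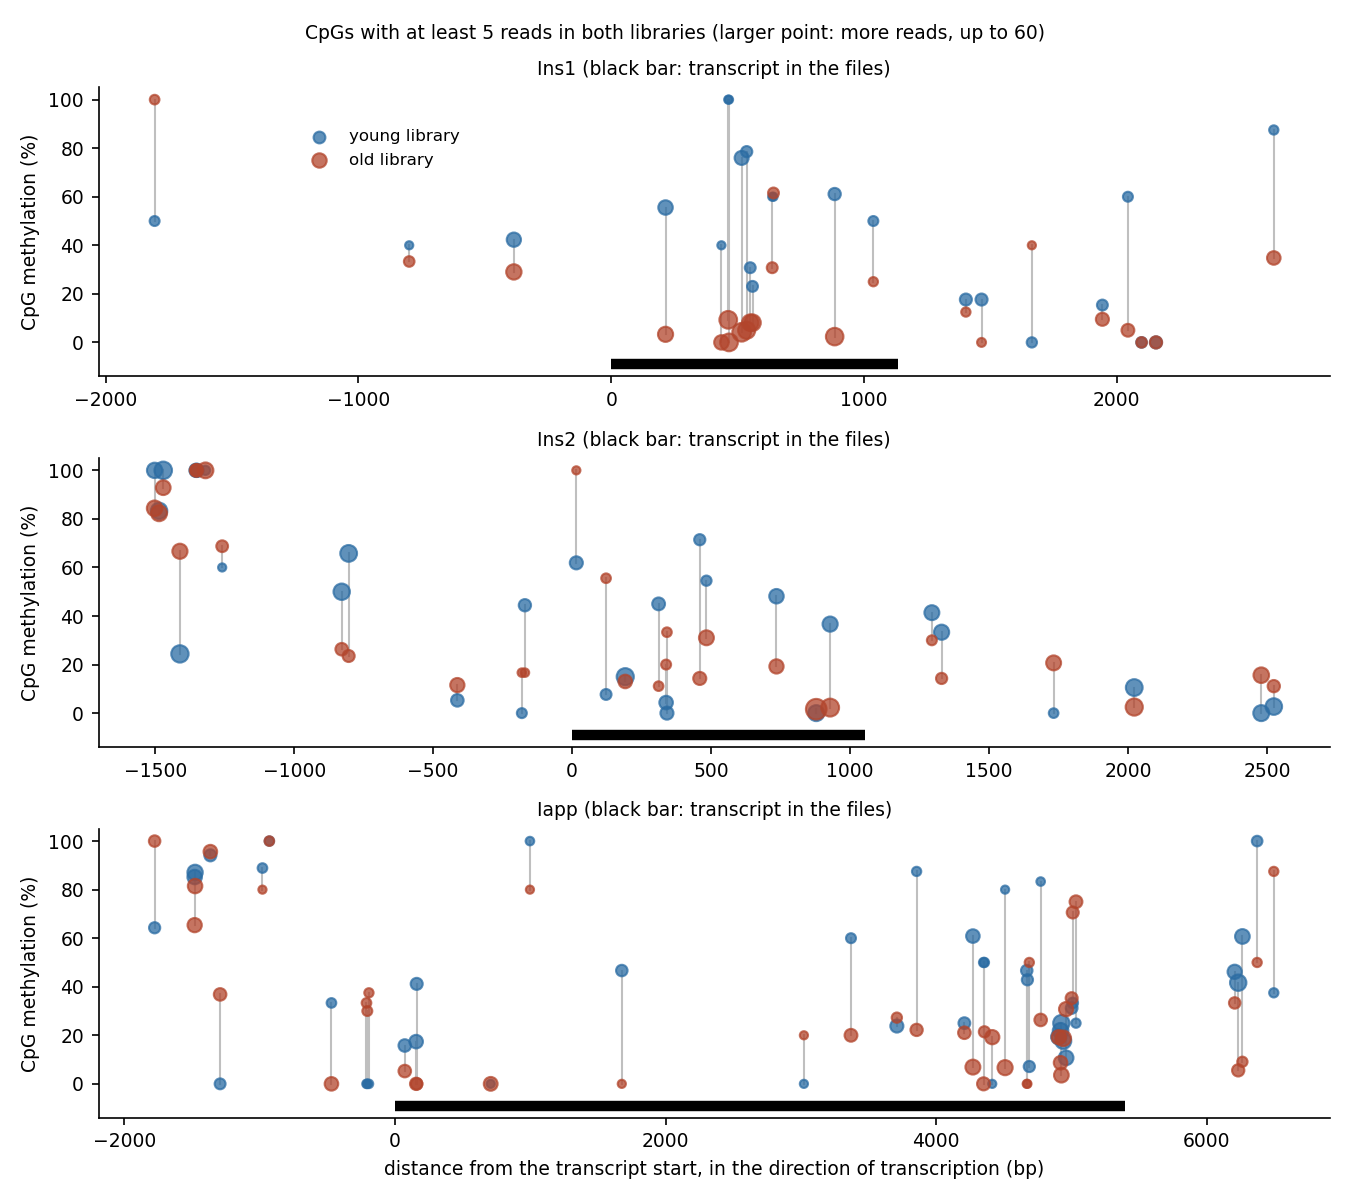
Methylation of each CpG with at least 5 reads in both bisulfite libraries against distance from the transcript start in bp, old and young joined by a grey line, with larger points for more reads and a black bar for the transcript. In the Ins1 transcript most old points lie under 10% and most young points above 40%, while the pattern is mixed at Ins2 and Iapp.

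Over the whole 100 kb around each start the libraries were close. Ins1 was at 56.9% in old and 58.2% in young cells (adjusted p = 0.178), Ins2 at 40.1% and 40.2% (adjusted p = 0.793), and Iapp at 57.5% and 60.2% (-2.65 points, adjusted p = 0.000218). In these windows 9.44% of genes were called lower and 67.6% higher in old, with a median of 2.57 points. The lower values near Iapp sat in the transcript and just after it: from 0 to 5 kb after the start the level was 14.2% in old and 30.9% in young cells, and from 5 to 10 kb 32.4% and 62.5%.

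Histone regions were compared by position only, since each list is 1 sample. Whether the chromatin mice carried the insulin promoter reporter was not given. Reads from such a transgene could not be separated from those of the insulin genes in these lists. H3K27ac, a mark of active promoters and enhancers, was held for young cells. All 3 starts lay inside an H3K27ac region, as did 28.1% of all 22534 starts. The region over Ins1 was 17974 bp wide, from 16509 bp before to 1465 bp after the start, and by deposited tag count it ranked 2nd of 15754. The region over Iapp spanned 6408 bp and shared the 33rd and 34th place, and that over Ins2 spanned 9224 bp and ranked 44th. Tag counts grow with the width of a region. By the deposited score the same regions stood much lower, near 3401 for Ins1, 7401 for Iapp and 11565 for Ins2, the last outside the better-scored 50% of the list. Iapp had 4 more H3K27ac regions within 50 kb, Ins2 had 1 and Ins1 none.

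Methylation inside these regions was lower in the old library at each start. It was 41.9% against 61.4% over Ins1 (adjusted p = 5.36e-14), 20.9% against 32.0% over Iapp (adjusted p = 0.000187) and 43.1% against 47.9% over Ins2 (adjusted p = 0.0470), by Fisher's exact test adjusted over the list. In this list 35% of 15514 regions were called lower and 19.5% higher. The transcripts of Ins1 and Ins2 lie inside their regions. The Iapp region reaches 5346 bp after the start of a transcript of 5395 bp. Transcript CpGs thus enter both values for each gene, and these are not separate results.

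H3K27me3, the mark of Polycomb repression, was listed over Ins1 and Ins2 in old and not in young cells. The old region over Ins1 was 11999 bp wide, from 8812 bp before to 3187 bp after the start, and the one over Ins2 13999 bp, from 8387 bp before to 5612 bp after it. No H3K27me3 region lay within 50 kb of Iapp in either list. The old list was the longer one, with 38007 regions against 31187, and 39.3% of all starts lay inside an old and 25.4% inside a young region. Of the 6321 starts inside a young H3K27ac region, 16.7% lay in an H3K27me3 region of the old list only, as did 21.0% of the 100 other genes with the highest mean CPM. By deposited score, the region over Ins1 shared ranks around 5566 of 38007, and the region over Ins2 around 20095, just past the middle of the list. In the old region over Ins1, methylation was 25.5% in old and 58.5% in young cells (adjusted p = 3.80e-30), and over Ins2 61.1% and 63.4% (adjusted p = 0.288), where 15.6% of 37992 regions were called lower and 23.2% higher. The old regions over Ins1 and Ins2 cover the whole transcript, so its CpGs enter these values too. Downstream of Ins2, towards Igf2, both lists held H3K27me3, beginning 9613 bp after the start in young and 8613 bp after it in old cells.

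H3K4me1, a mark of enhancers and promoter flanks, was listed as narrow peaks, 77291 in young and 36207 in old cells. Near Ins1 the old list held 2 peaks, at 1333 to 1213 bp and 908 to 788 bp before the start. The young list held none within 20 kb of Ins1 and 2 within 50 kb, 42.7 and 34.6 kb before the start. Ins2 had 9 young and 4 old peaks within 50 kb, of which several lay around Igf2, and Iapp had 3 and 2. The median over all starts was 5 young and 2 old peaks. Of the 14 young and 8 old peaks near the 3 starts, 2 of each overlapped a peak of the other age by at least 1 bp, which is 14.3% of the young and 25.0% of the old peaks, and both were near Ins2. Over the whole lists 16.7% of the young and 35.6% of the old peaks overlapped in this way. Of the 14 young peaks, 9 held CpGs that could be tested for methylation. In the old library 2 were called higher, 1 was called lower and 6 passed in neither direction, where 10.1% of 56975 peaks of that list were called higher and 15.9% lower. The 2 higher ones lay 19.8 and 21.1 kb after the Ins2 start, beside Igf2, at 8.30% in old and 1.73% in young cells (adjusted p = 0.00150) and at 12.9% and 1.46% (adjusted p = 1.25e-09). The lower one, with a single CpG, lay 42.7 kb before the Ins1 start, at 55.6% of 9 old and 94.1% of 34 young reads (adjusted p = 0.0480).

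**Figure D5:**
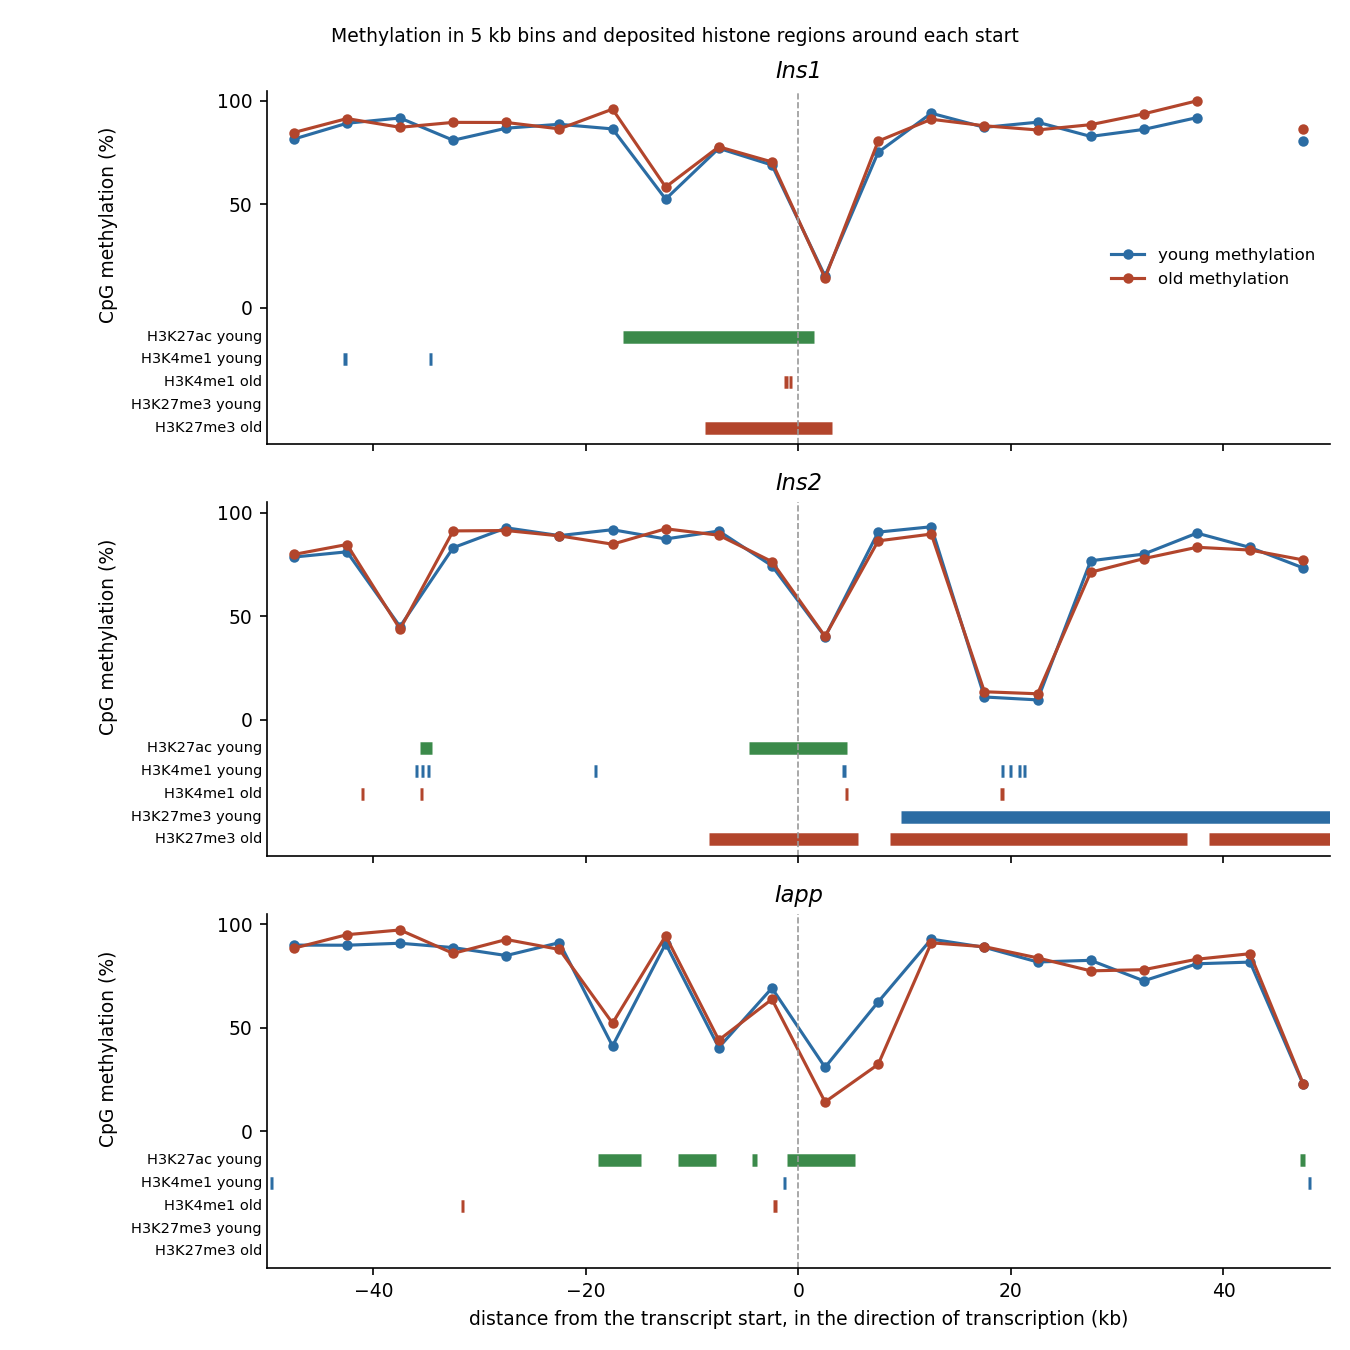
Methylation of CpGs in 5 kb bins (percent, old and young lines) against distance from the transcript start in kb, with bars below for the deposited histone regions of each list. The widest gaps are in the 2 bins after the Iapp start, with old below young, and smaller gaps with old above young lie before the starts, such as 52.3% against 41.2% at 20 to 15 kb before Iapp; the wide H3K27ac region over Ins1 and the old H3K27me3 regions over Ins1 and Ins2 stand out.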

How the data were processed

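RNA of 5 libraries, 2 bisulfite libraries and 5 lists of histone regions from sorted mouse β cells were used, on build mm9, per the labels. Tools listed in the submitters' processing notes, with no role for each, were Bowtie 0.12.7, STAR, edgeR, HOMER and CASAVA 1.8.2. The deposited table of whole-number read counts per RefSeq transcript was reduced to the transcript with the highest total per gene. Counts were tested with edgeR 4.0.16 in R 4.3.3 (TMM factors, filterByExpr, quasi-likelihood test, two-sided, Benjamini-Hochberg adjustment over all genes tested, threshold 0.05); DESeq2 1.42.0 was an alternative. A second deposited table holds length-scaled signal values whose columns are not on a common scale; it was used for relative transcript lengths only. In it, 1 column repeats another and was not used. The young count columns show the age but not the sample, so the young libraries are named by depth. The design text calls the RNA replicates biological, each a pool of mice, and p-values measure the spread between these pools.

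Methylation fractions and coverage per CpG, as deposited by the authors, were turned into methylated and unmethylated reads and tested with Fisher's exact test in Python 3.11.15 with SciPy 1.17.1 (at least 5 reads in both libraries for regions, 10 for single CpGs). Median coverage was 18 in old and 16 in young cells. H3K4me1 and H3K27ac regions were called with HOMER against 1 input library each (false discovery rate 0.01, 2-fold over input), per the file headers, with deposited tag signal, score and fold ratio over input. The H3K27me3 lists carry a deposited score and a p-value per region, and no header names their caller. Regions were ranked by score or tag count inside their own list only.

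The tests and the scripts were tested on simulated data. The members and gene lists were chosen with earlier results of these data known. Named genes were the members, genes starting within 50 kb, up to 3 called genes per list with the smallest adjusted p, a fixed set of well-known genes of each list, other islet hormones, and the 3 genes most like each member with a mean of at least 100 CPM; named CpGs outside the promoter window were chosen after their values were seen. Alternatives were other scaling, filters, transcripts, windows and coverage minimums, and leaving out each library.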

Additional observations from a re-analysis of the deposited data

How the results depend on the processing

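Of 153 alternatives over 47 results, 110 kept the direction and side of the threshold, or a count within 1.5 times. For methylation of histone regions, taking the better-scored 50% of a list changed only the adjustment of p. The direction could not change there. Leaving out 1 library at a time gave log2 fold changes of 0.10 to 0.35 for Ins1, 0.14 to 0.998 for Ins2 and 1.16 to 1.47 for Iapp, and log2 differences of -0.0566 to 0.654 for Ins2 to Ins1, reversed without the deeper young library. Where an arm was left with 1 library, it was assumed to vary like the other group. Called genes then ranged from 0 to 8 for promoter factors, 0 to 15 for folding, 0 to 3 for processing, 1 to 6 for granule storage, 0 to 3 for receptors and clearance and 0 to 3 for mRNA regulators; over all genes, 40 to 2368 rose and 273 to 3099 fell, and DESeq2 called 1185 and 2966. The list counts pool rises and falls, and the main test covered 25, 26, 10, 11, 11 and 10 genes of these lists. Each list had its highest count when a young library was left out. In those fits a larger share of all genes was called than the 11.1% of the main test. Without an old library 2.22% to 2.97% of all genes were called. The ranges alone therefore do not set a list apart from all genes. With RLE factors 5 folding genes and 1 receptor gene were called, where 11.2% of all genes were. The Ins2 promoter difference was -1.68 points from 250 bp before to 50 bp after the start, -5.95 within 2000 bp and -10.8 with CpGs at least 100 bp apart (chosen after seeing the data), none of which passed. The Iapp promoter difference was -21.8 points with at least 10 reads and passed, and reversed to 33.3 points from 250 bp before to 50 bp after the start, where 3 CpGs counted; the smaller Ins1 window held no CpG. The old H3K27me3 regions over and next to Ins2 passed with at least 10 reads, at -5.15 and -1.03 points. Region counts near the starts were 5 in a 20 kb window for H3K4me1 in young and 5 in old cells, 5 among the better-scored 50% of the list for old H3K4me1 and 5 for H3K27ac, and 2 within 100 kb for young H3K27me3. With an overlap of at least 50% of the narrower region, 1 H3K4me1 peak of each age was shared. The cause of these changes was not tested. No paired analysis was possible because the young count columns carry no replicate numbers. Depth was low in the promoter windows of Ins1 and Iapp, with 73 and 103 young reads.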

Other observations

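The CpG-rich Igf2 promoter, downstream of Ins2, was at 4.67% in old and 2.82% in young cells over 137 CpGs, and the Slco1a5 promoter near Iapp at 76.2% and 58.4% over 7 CpGs. A small H3K27ac region 47203 bp after the Iapp start, beside Pyroxd1, was at 4.20% in old and 7.45% in young cells (adjusted p = 4.83e-05).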
